A study of Mus musculus with 6 samples.

Results

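The genes described here encode the machinery of DNA replication and of nucleotide synthesis. They are 44 genes chosen by name for their known roles, out of 18193 genes with a probe set of their own on the array. They were measured in mouse testes at postnatal day 21, in 3 samples from Nxf2 knockouts (KO) and 3 from wild types (WT), with 1 Affymetrix array each. Nxf2 is an X-linked gene for an mRNA export receptor of germ cells. The labels give neither the strain, nor how the knockout allele was built, nor the number of animals behind a sample, so p-values measure only the spread between these samples. Per the series' design text the genotypes had testes of like weight at this age, and the arrays ask which transcripts differ between them.

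Replication starts when the origin recognition complex marks origins and, with Cdc6 and Cdt1, loads the hexameric Mcm2-7 helicase in G1. Cdc45 and the GINS complex then turn the loaded helicase into a moving fork, where primase, polymerases, the sliding clamp and single-strand binding proteins copy the DNA. In the juvenile testis, S phase takes place mainly in dividing spermatogonia and in preleptotene spermatocytes, which copy their DNA a last time before meiosis.

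The targeted gene served as the check of the labels. Nxf2 had a signal of 116, 106 and 131 in the KO samples, against 374, 340 and 386 in the WT samples, so each KO sample lay below each WT sample. Its log2 fold change was -1.59 ± 0.0999 (SE, limma, adjusted p = 0.000488). The sources used here do not say whether its probe set lies in the deleted stretch. The arrays had median signals of 37.1 to 40.9 and pairwise Spearman correlations of 0.965 to 0.992 over the tested probe sets. Germ cell and Sertoli cell genes were present, as the tissue label requires: all 5 germ cell genes listed, Ddx4 and Dazl among them, and 11 of 12 Sertoli cell genes reached the dim limit, with Amh below it.

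None of the 44 genes was called higher or lower in KO testes by its brightest probe set. All 44 had a probe set that reached the dim limit, a mean signal of 20.5 over the 6 arrays, and 0 of 44 passed the test in either direction (limma, adjusted p under 0.05), whereas 10.3% of all 12971 tested genes passed, 2.98% as higher and 7.37% as lower in KO (of all probe sets, 7.49% passed). With array weights 8 of the 44 were called higher and 4 lower, and with the mean of all probe sets of each gene 3 higher and 1 lower. At an unadjusted p under 0.05 there were 12 of the 44, 8 of them with a higher and 4 with a lower mean in KO, which is 27.3% against 34.9% of all tested genes. The log2 fold changes ran from -0.25 for Rfc2 to 0.39 for Mcm2, with a median of 0.026, beside a median of 0.036 over all tested genes. The mean was higher in KO in 23 of the 44 genes, 52.3% beside 56.9% of all tested genes, and lower in 21 (43.1% of all). After each array was centred on its median it was higher in 20. The share of all tested genes after centring is not given here.

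With 3 samples per group the number of arrays limits the precision. For 42 of the 44 genes the 95% interval at the brightest probe set lay inside a 1.5-fold change in both directions, and Mcm2 and Tk1 were the exceptions. The bound does not cover other probe sets. Intervals of dimmer ones passed it, among them those of Cdt1 (0.24 to 0.88 on the log2 scale) and Rfc1 (-0.70 to -0.05). In 9 genes each KO sample lay above each WT sample and in 8 each lay below, which is 20.5% and 18.2% of the genes, beside 21.5% and 18.3% of all tested genes. Both shares were near those of the whole array. A testis holds many cell types, so a change in the number of dividing cells and a change in RNA per cell cannot be told apart in any value given here.

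**Figure D1:**
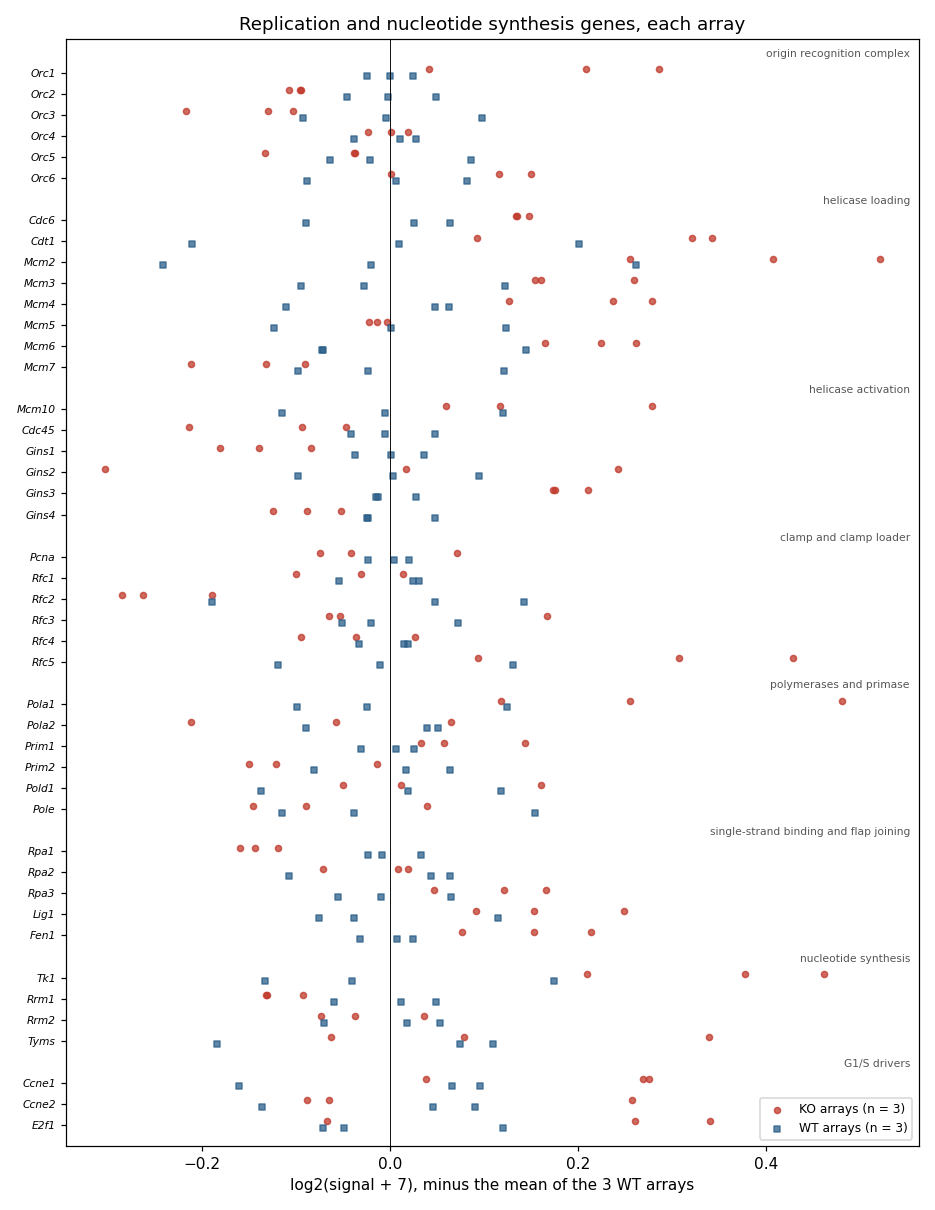
The horizontal axis gives log2(signal + 7) of each array minus the mean of the 3 WT arrays, and each row is 1 of the 44 genes, grouped by role, with circles for KO arrays and squares for WT arrays. Most rows overlap. In 4 of the 8 helicase-loading genes (Cdc6, Mcm3, Mcm4 and Mcm6) all KO arrays lie to the right of all WT arrays. This is 50%, beside 20.5% of the 44 genes and 21.5% of all tested genes.

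The origin recognition complex, the 6-subunit platform on which the helicase is loaded, showed no called change, and its median log2 fold change was -0.036. Orc3, a core subunit, had a signal of 452, 444 and 417 in KO and of 485, 521 and 455 in WT. The 3 KO samples lay below the 3 WT samples, by a log2 fold change of -0.15 ± 0.0707 (SE) at an adjusted p of 0.191 (limma). Its other 2 probe sets pointed the opposite way, at 0.10 and 0.17, with overlapping groups. Orc1, the subunit whose level cycles with G1 in many cells, had 105, 126 and 119 in KO and 99.9, 104 and 102 in WT, a log2 fold change of 0.18 ± 0.108 (SE) at an adjusted p of 0.301 (limma). All KO values of Orc1 were higher than all WT values, also at its second probe set. Orc2 and Orc5 had lower means (log2 fold changes of -0.10 and -0.07), Orc6 a higher one (0.09), and Orc4 lay at -0.0016.

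Helicase-loading genes had the highest median of the 6 role groups with at least 5 genes, 0.20. In 6 of the 8 the mean was higher in KO, which is 75% beside 56.9% of all tested genes. Mcm2, a subunit of the Mcm2-7 ring, had a signal of 326, 293 and 354 in KO and of 241, 206 and 294 in WT. KO replicate 2 lay just below WT replicate 3, so the groups overlapped, and the log2 fold change of 0.39 ± 0.125 (SE) did not pass (adjusted p = 0.0804, limma), but it did without WT replicate 3 (0.53, adjusted p = 0.0382). Mcm4, another ring subunit, had 609, 627 and 563 in KO and 477, 533 and 539 in WT, without overlap, a log2 fold change of 0.21 ± 0.0698 (SE) at an adjusted p of 0.0861. Mcm6 stood at a log2 fold change of 0.22 at an adjusted p of 0.095 and Mcm3 at 0.19 (adjusted p = 0.141), both without overlap. The ring subunits did not all lean one way: Mcm5 lay at -0.01 (adjusted p = 0.918), and Mcm7 had 959, 986 and 906 in KO and 1144, 982 and 1034 in WT, a log2 fold change of -0.15 at an adjusted p of 0.159. Cdt1, which brings the ring to the origin, had 503, 422 and 496 in KO and 398, 341 and 456 in WT, a log2 fold change of 0.25 at an adjusted p of 0.159, and Cdc6, the loading ATPase, had 0.14 (adjusted p = 0.337) with no overlap. With the WT mean of each gene set to 0, the list median was 0.19, 0.19 and 0.15 in KO replicates 1 to 3, against -0.0098, -0.096 and 0.12 in WT replicates 1 to 3. WT replicate 3 was thus the closest to the KO range.

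Second probe sets gave calls that the brightest ones did not. The 44 genes have 86 tested probe sets, and 3 of the 42 that were not the brightest passed, 2 as higher and 1 as lower in KO. Over all 86 this is 2.33% and 1.16%, beside 2.26% and 5.23% of all tested probe sets. Over the 42 alone, which leave out the uncalled brightest ones, it is 4.76% and 2.38%. The second probe set of Cdt1 rose: its signal was 162, 167 and 180 in KO and 134, 88.3 and 122 in WT, a log2 fold change of 0.56 ± 0.143 (SE) at an adjusted p of 0.0442 (limma). That of Mcm4 rose with 362, 382 and 385 in KO and 284, 317 and 299 in WT, a log2 fold change of 0.32 ± 0.0733 (SE) at an adjusted p of 0.0304. In both, every KO sample lay above every WT sample. The Cdt1 call was lost when any 1 of the 6 arrays was left out (adjusted p 0.062 to 0.125), and the Mcm4 call was kept without WT replicate 2 (adjusted p = 0.040) and lost without any 1 of the others (adjusted p 0.0511 to 0.143). With each array centred on its median, these calls were lost too, at adjusted p = 0.0545 for Cdt1 and adjusted p = 0.0716 for Mcm4, as they were with no dim filter (0.0899 and 0.0513) and without the intensity trend (0.0874 and 0.0679). The second probe sets of Mcm2 and Mcm6 had log2 fold changes of 0.30 and 0.23, also without overlap, and did not pass (adjusted p = 0.0766 and 0.0783). For Mcm3 all 5 tested probe sets had higher means in KO (0.09 to 0.22), and for Mcm7 all 4 had lower ones (-0.15 to -0.03).

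**Figure D2:**
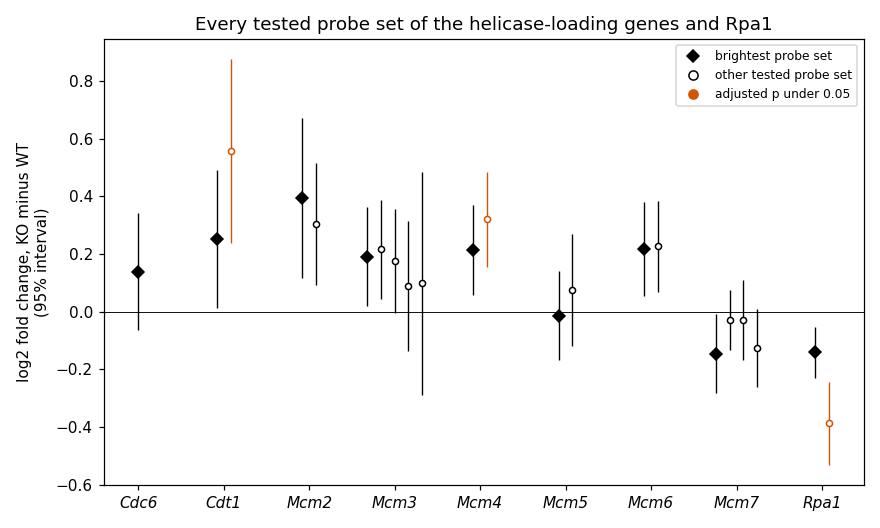
The vertical axis gives the log2 fold change, KO minus WT, with its 95% interval, for every tested probe set of the 8 helicase-loading genes and Rpa1. Filled diamonds mark the brightest probe set of a gene, open circles the others, and orange the 3 that passed, the second probe sets of Cdt1 (0.56), Mcm4 (0.32) and Rpa1 (-0.39).

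Most helicase-loading genes with a start region at hand held letters of the E2F motif there. The genes were chosen by name for their known roles and not by sequence. Those roles lie in S phase, so a high share of this motif is no independent evidence. The E2F motif, which binds the transcription factors that time S phase genes, was searched as TTTCCCGC, TTTGGCGC, TTTCGCGC and TTTGCCGC on both strands, in the RefSeq windows (GRCm38.p6) from 250 bases before to 50 after each start. Matches may overlap one another and may share a base with a CCAAT match. Of the 36 genes with a window, 13 (36.1%) held a match in at least 1 window, beside 2.6% of all 27025 genes and 4.68% of the 10507 tested genes with a window. In the helicase-loading group it was 6 of 7, Cdc6, Cdt1, Mcm3, Mcm5, Mcm6 and Mcm7, and in the nucleotide synthesis group 0 of 4. The box CCAAT, bound by NF-Y, stood in 22 of the 36 (61.1%), beside 41.1% of all genes. A match is a description of letters, and says nothing of whether a factor binds there. The windows below run from 150 bases before to 30 after the start, with E2F letters (either strand) in capitals. They are shown because Cdc6, Mcm3 and Mcm6 had higher means in KO and Mcm7 a lower one, though none of these passed. A second Mcm7 window held no match. Mcm5 also held a match in this stretch and is not shown, and the Cdt1 match lies outside it. Mcm2, which had the highest log2 fold change of the 44 genes, held no match, and Mcm4 had no window. A link between the letters and the direction of the means was not tested. In Mcm6 a match on either strand overlaps its neighbour to form 1 longer run.
Cdc6 (chr11:98908001-98908180, plus strand): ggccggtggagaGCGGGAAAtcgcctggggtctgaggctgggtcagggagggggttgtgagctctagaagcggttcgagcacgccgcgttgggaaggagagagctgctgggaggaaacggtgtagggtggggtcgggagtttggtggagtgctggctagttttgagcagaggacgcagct
Mcm3 (chr1:20820283-20820462, minus strand): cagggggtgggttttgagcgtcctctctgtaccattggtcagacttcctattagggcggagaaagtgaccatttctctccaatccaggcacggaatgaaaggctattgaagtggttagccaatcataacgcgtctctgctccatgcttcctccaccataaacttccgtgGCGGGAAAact
Mcm6 (chr1:128359676-128359855, minus strand): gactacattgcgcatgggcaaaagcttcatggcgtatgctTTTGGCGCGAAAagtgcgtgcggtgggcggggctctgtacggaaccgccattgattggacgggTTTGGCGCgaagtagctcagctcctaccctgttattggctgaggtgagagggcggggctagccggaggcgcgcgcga
Mcm7 (chr5:138171854-138172033, minus strand): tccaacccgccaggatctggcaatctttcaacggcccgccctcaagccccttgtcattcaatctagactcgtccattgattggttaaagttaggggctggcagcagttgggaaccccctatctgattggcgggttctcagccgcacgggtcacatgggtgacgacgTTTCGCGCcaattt

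Among the factors that activate the loaded helicase, none passed, and the median log2 fold change was -0.052. Gins1, a subunit of the 4-part GINS complex, had a signal of 955, 918 and 892 in KO and of 1013, 1038 and 986 in WT. Its KO values all lay below its WT values, with a log2 fold change of -0.13 ± 0.0475 (SE) at an adjusted p of 0.103 (limma). Gins3, of the same complex, had 160.2, 160 and 164 in KO and 139.6, 139.8 and 144 in WT, a log2 fold change of 0.19 ± 0.0887 (SE) at an adjusted p of 0.197, and its KO values all lay above its WT values. Subunits of 1 complex thus stood on both sides of 0: Gins4 lay at -0.09 with its KO values below the WT values, and Gins2 at -0.01. Cdc45 had -0.12 (KO below WT in every sample) and Mcm10, which helps to start the fork, 0.15 with overlapping groups.

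Of the sliding clamp and its loader none passed, and the median log2 fold change was -0.025. Pcna, the clamp itself and a common marker of dividing cells, had a signal of 1346, 1245 and 1216 in KO and of 1260, 1299 and 1285 in WT, and the groups overlapped. Its log2 fold change was -0.02, with a 95% interval of -0.12 to 0.09 (adjusted p = 0.859, limma). Rfc2, a clamp loader subunit, had 528, 565 and 537 in KO and 667, 565 and 713 in WT. WT replicate 2 lay at the level of KO replicate 2, and the log2 fold change of -0.25 ± 0.0829 (SE) did not pass (adjusted p = 0.0939), but it did without WT replicate 2 (-0.34, adjusted p = 0.0233). The brightest Rfc2 probe set is of a kind whose probes may match other transcripts (its name ends in _x_at), and the Rfc2 probe set without this ending stood at -0.07 (adjusted p = 0.529). Rfc5, also of the loader, leaned the other way with 136.5, 159 and 174 in KO and 126, 117 and 140.3 in WT, a log2 fold change of 0.28 ± 0.118 (SE) at an adjusted p of 0.159. Rfc1, Rfc3 and Rfc4 lay between -0.04 and 0.02, and the other 2 probe sets of Rfc1 at -0.22 and -0.37 (adjusted p = 0.121 and 0.132).

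Of the polymerases and primase none passed either, with a median log2 fold change of -0.012. Pola1, the X-linked catalytic subunit of the polymerase that starts each strand, had a signal of 74.4, 82.6 and 97.7 in KO and of 63.0, 66.8 and 74.8 in WT. KO replicate 1 lay just below WT replicate 3, and the log2 fold change was 0.28 ± 0.133 (SE, adjusted p = 0.19, limma). Prim2, the large primase subunit, had 586, 632 and 575 in KO and 603, 668 and 646 in WT, an overlap, with a log2 fold change of -0.10 ± 0.0632 (SE) at an adjusted p of 0.343. Prim1, the small one that makes the primer, had a log2 fold change of 0.08, with KO above WT in every sample at both of its probe sets. Pola2, Pold1 and Pole, the last 2 being the catalytic subunits of the main fork polymerases, lay between -0.07 and 0.04.

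Rpa1, the large subunit of the protein that coats single-stranded DNA, had the lowest p of the 44 genes. Its signal was 1200.4, 1181 and 1168 in KO and 1283, 1297 and 1335 in WT. Every KO sample lay below every WT sample, by a log2 fold change of -0.14 ± 0.0397 (SE), which missed the threshold (adjusted p = 0.0588, limma). The second Rpa1 probe set fell: it had 479, 519 and 465 in KO and 629.8, 671 and 617 in WT, a log2 fold change of -0.39 ± 0.0649 (SE) at an adjusted p of 0.0104. Its call held in 13 of 15 alternatives and was lost without WT replicate 1 (adjusted p = 0.063) and without the intensity trend (adjusted p = 0.053). The partner subunits had log2 fold changes of -0.01 (Rpa2) and 0.11 (Rpa3), and neither passed. The differences between subunits were not tested. RPA also serves meiotic recombination. Fen1, the flap nuclease that trims Okazaki fragments, had 724, 686 and 755 in KO and 653, 636 and 661 in WT, without overlap, a log2 fold change of 0.15 ± 0.0558 (SE) at an adjusted p of 0.122, and Lig1, the ligase that joins them, stood at 0.16 (adjusted p = 0.205).

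**Figure D3:**
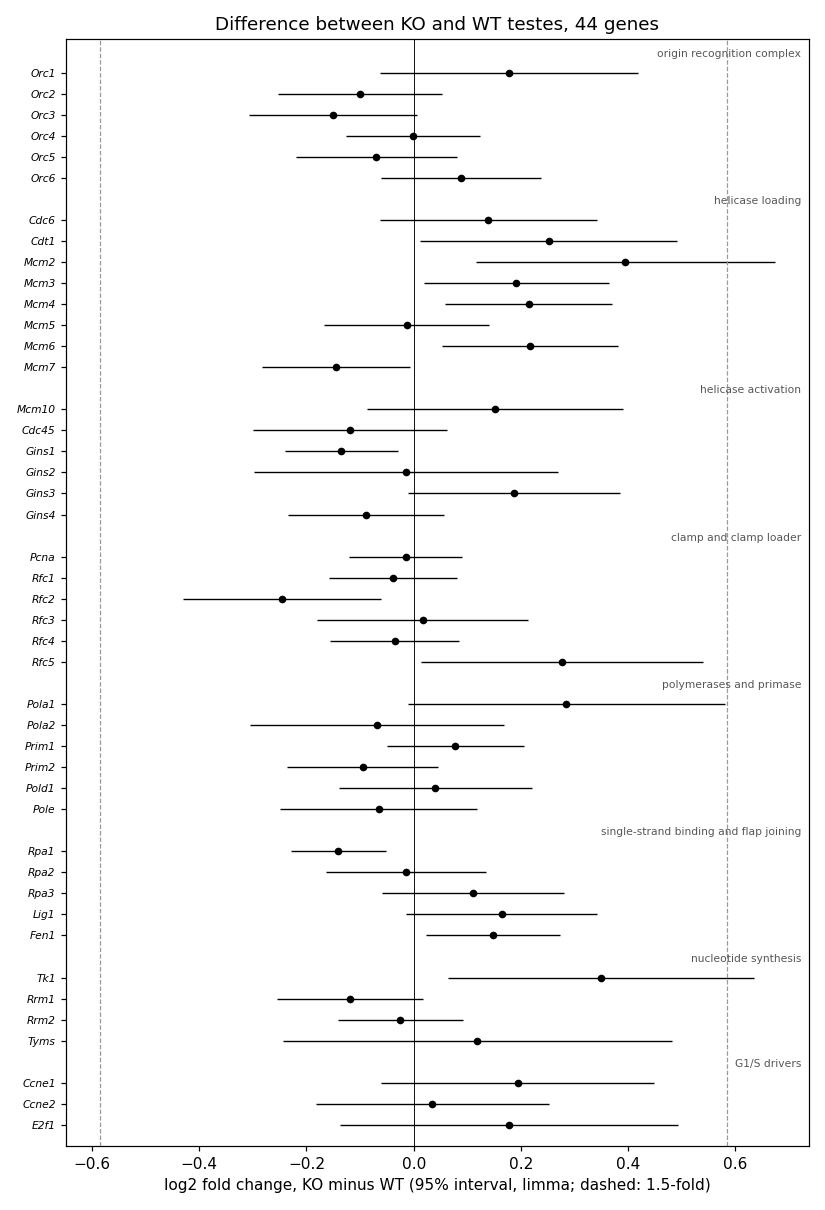
The horizontal axis gives the log2 fold change, KO minus WT, with its 95% interval, and each row is 1 of the 44 genes at its brightest probe set. The dashed lines mark a 1.5-fold change either way, which the intervals of Mcm2 and Tk1 cross upwards, and 12 of the intervals exclude 0.

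Of the nucleotide synthesis enzymes none passed, and the median log2 fold change was 0.047. Tk1, the thymidine kinase of the salvage route and an S phase enzyme, had a signal of 87.6, 99.3 and 105.7 in KO and of 72.5, 67.6 and 85.3 in WT. All KO values were higher, with a log2 fold change of 0.35 ± 0.128 (SE) and a 95% interval of 0.06 to 0.63, and it did not pass (adjusted p = 0.114, limma). Rrm1, the large subunit of ribonucleotide reductase, had 455, 443 and 443 in KO and 490, 466 and 503 in WT, all KO values lower, with a log2 fold change of -0.12 ± 0.0612 (SE) at an adjusted p of 0.229. Rrm2, the small subunit, stood at -0.02 (adjusted p = 0.784). Tyms, which makes thymidylate, was read by a single tested probe set with signals of 19.7 to 28.3 in KO and 17.6 to 23.1 in WT, near the dim limit, with a log2 fold change of 0.12 at an adjusted p of 0.664.

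The 3 drivers of the step into S phase had higher means and none passed. Ccne1, the cyclin E1 that activates Cdk2, had a signal of 135, 160.04 and 161 in KO and of 138, 141 and 117 in WT, a log2 fold change of 0.19 ± 0.115 (SE) at an adjusted p of 0.29 (limma). Its second probe set gave -0.06. E2f1, the transcription factor of S phase genes, had 56.7, 73.0 and 77.5 in KO and 57.5, 65.6 and 56.6 in WT, with KO replicate 1 inside the WT range and a log2 fold change of 0.18 ± 0.142 (SE) at an adjusted p of 0.433. Ccne2 lay at 0.03. In all, 30 of the 44 genes had more than 1 tested probe set, and in 8 of these (Orc2, Orc3, Orc4, Mcm5, Gins2, Rpa2, Rrm2 and Ccne1) the probe sets had both signs.

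A wider list of replication, nucleotide and G1/S genes held 4 genes that passed. Of its 77 measured genes 2 rose and 2 fell, beside a background of 2.98% and 7.37% over all tested genes. In 56 the mean was higher in KO, 72.7% beside 56.9% of all tested genes. After median centring it was higher in 45, with no share of all tested genes at that setting to set beside it. Ccna2, the cyclin A2 of S phase and G2, rose, with a signal of 366, 309 and 385 in KO and of 269, 246 and 264 in WT, a log2 fold change of 0.43 ± 0.0932 (SE) at an adjusted p of 0.0257 (limma). The other Ccna2 probe set did not pass: it stood at 0.12 (adjusted p = 0.372), with overlapping groups. Skp2, the ubiquitin ligase subunit that marks the Cdk inhibitor Cdkn1b and Cdt1 for decay, rose, with 142, 145 and 198 in KO and 108, 103 and 109 in WT, a log2 fold change of 0.55 ± 0.132 (SE) at an adjusted p of 0.0353. A second Skp2 probe set rose as well (0.43, adjusted p = 0.0451), and its 2 dimmer tested ones stood at 0.46 and 0.33 (adjusted p = 0.0646 and 0.157). Rnaseh2a, the catalytic subunit of the nuclease that removes ribonucleotides from DNA, fell, with 793, 675 and 698 in KO and 895, 975 and 898 in WT, a log2 fold change of -0.35 ± 0.068 (SE) at an adjusted p of 0.0173. Cdkn2c, an inhibitor of Cdk4 and Cdk6, fell, with 616, 645 and 537 in KO and 792, 804 and 743 in WT, a log2 fold change of -0.38 ± 0.073 (SE) at an adjusted p of 0.0173. At the brightest probe sets of these 4 genes no KO sample overlapped a WT sample.

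All 4 calls were lost without WT replicate 1 (limma, adjusted p = 0.095 for Ccna2, 0.124 for Skp2, 0.072 for Rnaseh2a and 0.090 for Cdkn2c). Calls were lost over the whole array there, with 159 probe sets called instead of 2024. Without the intensity trend all 4 were lost too, at adjusted p = 0.067, 0.069, 0.077 and 0.071 in the same order. The Ccna2 call was kept without KO replicate 2 and lost without any 1 of the other arrays, and that of Skp2 was kept without KO replicate 1 and lost without any 1 of the others. Rnaseh2a also lost its call without KO replicate 2 (adjusted p = 0.0503), and Cdkn2c kept it without any 1 of the other 5 arrays.

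By list, other licensing and firing factors gave 1 rise of 12 (median 0.063), other polymerase and fork factors 1 fall of 18 (0.044), and other G1/S regulators 1 rise and 1 fall of 23 (0.18). Replication-coupled chromatin genes gave no call in 6 (-0.063), with Nasp, a histone chaperone, at -0.16 (adjusted p = 0.121). The second Nasp probe set fell, with 335, 367 and 277 in KO and 447, 516 and 398 in WT, and stood at -0.47 (adjusted p = 0.041). Other probe sets than the brightest also rose for Ppat (0.26), Tfdp2 (0.34) and Ccnd2 (0.62 and 0.60), at adjusted p of 0.0327, 0.0427, 0.0198 and 0.0268. The list of other nucleotide synthesis genes had no call in 18 either, but 17 of its means were higher in KO, the median was 0.17, and in 8 genes (44.4%, beside 21.5% of all tested genes) every KO sample lay above every WT sample. Atic, which carries out the last steps of purine synthesis, had 444, 419 and 468 in KO and 388, 315 and 364 in WT, a log2 fold change of 0.32 ± 0.0872 (SE) at an adjusted p of 0.0538 (limma). With the WT mean of each gene set to 0, the median of these nucleotide genes was 0.20, 0.12 and 0.25 in KO replicates 1 to 3 and 0.060, -0.044 and 0.020 in WT replicates 1 to 3.

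Unlike the 44 genes, some markers of the cells that replicate their DNA, and of cells that do not, were called higher or lower in KO. Of 8 tested genes of undifferentiated spermatogonia 5 rose, among them Zbtb16 by 0.93 and Lin28a by 0.59 on the log2 scale (limma, adjusted p = 0.00273 and 0.0062), beside 2.98% of all tested genes. Id4 and Gfra1 of the same list had lower means (-0.15 each) and did not pass. Their summed signal over 11 probe sets was 3339.5 to 3390 in KO and 2755.9 to 2797 in WT. Of 10 genes of differentiating spermatogonia and preleptotene cells, Crabp1 rose and Dmrtb1 fell, and the median was 0.19, with Stra8, which opens the last S phase before meiosis, at 0.20 (adjusted p = 0.233) and Kit at 0.23 (adjusted p = 0.121). Of 11 genes of mitosis, which act in the meiotic divisions too, 4 fell, beside 7.37% of all tested genes. Aurka fell by 0.38 and Ccnb2 by 0.33 on the log2 scale, whereas Mki67 had 0.12 and Cdk1 -0.01 and neither passed. The summed signal of the 11 genes was 5446 to 5644 in KO and 6065 to 6195 in WT. In the round spermatid list 8 of 9 fell (summed signal 2179.9 to 2259 in KO and 3108 to 3479 in WT). In the pachytene list 5 of 10 fell (8034 to 9255 in KO and 9813 to 10184 in WT). These counts, too, stand beside 7.37% of all tested genes. Of the somatic lists, 4 of 11 Sertoli, 2 of 6 Leydig, 0 of 9 macrophage, 2 of 7 endothelial and 0 of 6 peritubular myoid genes rose (2.98% of all tested genes). None of them fell. All 9 macrophage means were nevertheless higher in KO, with a median log2 fold change of 0.49, against 0.25 for the Sertoli and 0.45 for the Leydig list. Of the 9 macrophage genes 5 had an unadjusted p under 0.05 (limma), which is 55.6% beside 34.9% of all tested genes. With the WT mean of each gene set to 0, the medians of the Leydig and macrophage lists ran highest in KO replicate 3, at 0.73 and 0.94. The macrophage median was 0.094 and 0.35 in KO replicates 1 and 2. In WT replicates 1 to 3 it was 0.050, -0.17 and 0.15, so KO replicate 1 lay inside the WT range. In 6 of the 9 macrophage genes the groups overlapped. The part of these cell types in the values of the replication genes was not tested.

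Taken by their median, and not gene by gene, the 44 replication genes stood close to 0 beside these lists. On that scale their median was 0.039, 0.027 and -0.027 in KO replicates 1 to 3 and -0.017, -0.016 and 0.036 in WT replicates 1 to 3, so the groups overlapped. The median of the round spermatid list, by contrast, was -0.88 to -0.68 in KO and -0.31 to 0.26 in WT.

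**Figure D4:**
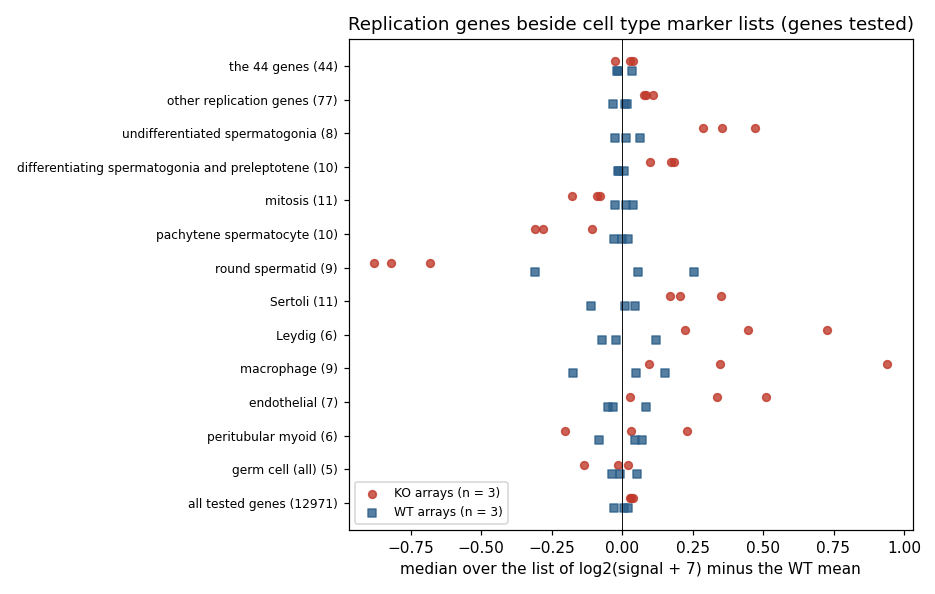
The horizontal axis gives the median over each list of log2(signal + 7) minus the mean of the WT arrays, with a circle for each KO array and a square for each WT array, and the number of tested genes in brackets. The median of the 44 replication genes lies within -0.03 and 0.04 on every array. The median of the undifferentiated spermatogonia list lies above, and that of the round spermatid list below, the WT arrays on all 3 KO arrays.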

How the data were processed

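Total RNA of 6 testes samples was hybridised to 1 Affymetrix array each. Intensities were deposited as linear signals, 1 for each probe set and array. The submitters' processing notes name MAS5 and give no version. Each array's deposited signals have a mean of 150 once 2% at either end are trimmed. Of 45101 probe sets, 64 controls were left out, and 34945 have 1 gene symbol, 932 several and 9160 none. Symbols were updated through Entrez identifiers to RefSeq (GRCm38.p6), where 34741 of these probe sets matched.

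Signals were transformed to log2(signal + 7), 7 being the 25th percentile of all values, so fold changes of dim probe sets are understated. The 27022 probe sets whose mean reached the 40th percentile (20.5) were fitted with limma 3.58.1 in R 4.3.3 (lmFit, eBayes with trend, two-sided, no covariate) and adjusted by Benjamini-Hochberg over all of them. Differences are KO minus WT, with moderated standard errors (SE) and 95% intervals that are not adjusted. A gene was represented by its brightest probe set over all 6 arrays. The fit was tested on simulated data.

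The genes and lists were chosen with earlier results of these data known, so no list's direction is independent evidence. Some genes of the wider list were not analysed here. By rule, values per sample are given for genes that passed and for the 2 of lowest p in each role group. Further values of Mcm7, Cdt1, Pcna and Tyms, the markers Stra8, Kit, Mki67, Cdk1, Id4 and Gfra1, and further probe sets of wider-list genes were added after their values were seen. The alternatives were other normalizations, pseudocounts (1 and 38.6), dim filters (none and the 60th percentile), no trend, array weights, a block for the replicate number, other probe sets per gene and each array left out.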

Additional observations from a re-analysis of the deposited data

How the results depend on the processing

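The count of 0 calls among the 44 genes held under quantile normalization, median centring, both pseudocounts, both dim filters and no intensity trend. Of the 44 genes, 42 were tested with the filter at the 60th percentile. The count of 0 calls also held without KO replicates 1, 2 or 3 or WT replicate 1. It was 8 higher and 4 lower with array weights, where 7217 probe sets were called instead of 2024, and 3 higher (Cdt1, Mcm2, Mcm4) and 1 lower (Rpa1) when all probe sets of each gene were averaged. It was 1 higher (Mcm4) when probe sets ending in _x_at or _s_at were left out, an alternative chosen after seeing the data. Leaving out single arrays gave 0 to 1 higher (Mcm2 without WT replicate 3) and 0 to 1 lower (Rfc2 without WT replicate 2). The median of the 44 was -0.019 with median centring and 0.068 without probe sets of those endings. The calls over the array were 1005 with no dim filter, 743 without the trend, and 159 to 1534 when 1 array was left out, with the lowest count without WT replicate 1. Of the 2024 calls 610 were higher and 1414 lower, against 247 and 1382 with median centring, 3771 and 3446 with array weights and 2173 and 2330 with the block. The median over all tested probe sets was 0.037, and -0.0079 with median centring.

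With the replicate number as a block, 4503 probe sets were called, 2 of the 44 as higher (Cdt1 and Mcm2) and 10 of the wider list. The design text speaks of pairs of testes, but nothing in the labels says that a number marks a litter or a day. Deviations from the group means correlated by 0.079, 0.46 and 0.27 between the KO and WT samples numbered 1, 2 and 3. Between samples of unlike number the correlations ran from -0.33 to 0.11. These values do not settle whether the numbers mark pairs, and the main fit did not use them as pairs. Each KO sample correlated best with the WT sample of its own number, but WT replicate 1 correlated best with KO replicate 3 (0.11). In the wider list the higher calls were 0 with no dim filter, 4 with the filter at the 60th percentile, 11 with array weights, 7 with the mean of all probe sets, and 0 to 1 when 1 array was left out. The lower calls were 5 with array weights and 0 to 2 when 1 array was left out. Without the trend both were 0. Its median was 0.045 with median centring and 0.060 to 0.11 when 1 array was left out. The cause of these shifts was not tested.

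The sign of 14 genes turned in some alternatives. With quantile normalization Orc4 was 0.018 and Rpa2 0.0052. With median centring Rfc3 was -0.028, Pold1 -0.0041 and Ccne2 -0.0100. With array weights Orc6 was -0.0072, Gins2 0.13, Pcna 0.012, Rfc3 -0.0019, Pola2 0.037 and Rrm2 0.054. With the mean of all probe sets Orc3 was 0.040, Orc4 0.011, Mcm5 0.031, Gins2 0.023, Rpa2 0.026 and Rrm2 0.041. Without probe sets ending in _x_at or _s_at Mcm5 was 0.075, Gins2 0.061, Rrm2 0.18 and Ccne1 -0.061. When 1 array was left out, Orc4 ran from -0.021 to 0.012, Mcm5 from -0.075 to 0.048, Gins2 from -0.14 to 0.13, Pcna from -0.058 to 0.015, Rfc3 from -0.059 to 0.057, Pola2 from -0.13 to 0.0035, Pold1 from -0.028 to 0.0996, Pole from -0.12 to 0.012, Rpa2 from -0.069 to 0.017, Rrm2 from -0.0600 to 0.0015 and Ccne2 from -0.076 to 0.096.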
